A study of Mus musculus with 2 samples.

Results

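Transcription start sites (TSSs) at which ChIP-seq reads of Msl1 clearly outnumbered those of Nsl1 were examined in mouse embryonic stem cells (mESCs). For every protein-coding gene of mm9 1 TSS was used, the one shared by most of its protein-coding transcripts, or the most upstream of ties. A TSS was kept if at least 100 reads of both libraries together lay within 2 kb of it and if the ratio of Msl1 to Nsl1 reads, each divided by the size of its library, was 2.5 or more. Of 22359 TSSs, 14583 had at least 100 reads, and 704 of these passed the ratio threshold (4.83%). The rule uses the reads within 2 kb, so the ratio in that window is a description of the selected TSSs and not a result.

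Msl1 and Nsl1 are scaffold subunits that define the MSL and the NSL complex. Both complexes contain the acetyltransferase Mof, which acetylates lysine 16 of histone H4, and this mark opens chromatin. In flies the MSL complex spreads over the bodies of genes on the male X chromosome and raises their output, whereas the NSL complex sits at the promoters of housekeeping genes.

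Chromatin of wild type (wt) mESCs of the 129P2/OlaHsd background, a male line named E14.wt at passage P26, was cross-linked, sheared and precipitated with an anti-Msl1 or an anti-Nsl1 antibody. The cells had been grown on feeder cells before a feeder-free passage. There is 1 library per antibody, of 19483142 Msl1 and 24883001 Nsl1 distinct nuclear reads, so no test between samples was possible. Intervals of ratios and shares are exact 95% intervals that cover counting error only, and those of medians are 95% intervals over the TSSs, taken as independent. The libraries also differ in kit (NEXTFlex for Msl1, NEBNext for Nsl1) and in read length (50 and 36 bases), so antibody and library preparation cannot be told apart, and no Input was used.

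The sequences just upstream of some of the TSSs with the highest ratios are shown because their CpG dinucleotides, in capitals, are a feature that the rule did not use. Each is the 120 bases before the TSS on mm9, 5′ to 3′ on the strand of the gene.
Eif4g2 (chr7:118226545-118226664, minus strand): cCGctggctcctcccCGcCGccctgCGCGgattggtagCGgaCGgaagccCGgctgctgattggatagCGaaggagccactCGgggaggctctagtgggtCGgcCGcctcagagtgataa
Slc3a2 (chr19:8797860-8797979, minus strand): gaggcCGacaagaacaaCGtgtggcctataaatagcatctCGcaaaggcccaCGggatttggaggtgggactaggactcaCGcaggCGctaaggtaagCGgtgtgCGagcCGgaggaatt
Tcf15 (chr2:151969177-151969296, plus strand): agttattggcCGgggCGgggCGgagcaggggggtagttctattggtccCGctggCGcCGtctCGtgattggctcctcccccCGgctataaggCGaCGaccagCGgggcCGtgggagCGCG
Hnrnpa2b1 (chr6:51419894-51420013, minus strand): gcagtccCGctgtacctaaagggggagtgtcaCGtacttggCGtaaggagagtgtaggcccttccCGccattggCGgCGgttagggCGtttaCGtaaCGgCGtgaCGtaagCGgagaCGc
Srsf3 (chr17:29169498-29169617, plus strand): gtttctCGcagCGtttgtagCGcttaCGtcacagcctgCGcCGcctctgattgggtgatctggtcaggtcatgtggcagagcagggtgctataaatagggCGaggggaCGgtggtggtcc
Phc1 (chr6:122287034-122287153, minus strand): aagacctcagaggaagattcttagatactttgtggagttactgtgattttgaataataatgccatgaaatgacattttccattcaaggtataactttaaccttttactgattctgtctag
In the first 5 of these stretches the 120 bases held between 8 and 14 CpGs, and in Phc1 they held 0. Whether the annotated TSS of Phc1 marks a promoter was not tested. Within 500 bases on both sides of the TSS, 95 CpGs lay at Eif4g2, 66 at Slc3a2, 117 at Tcf15, 100 at Hnrnpa2b1 and 89 at Srsf3, but only 13 at Phc1. For comparison, the same stretch is given for Sucla2 and Acsf3, the TSSs with the lowest ratios among those with at least 100 reads.
Sucla2 (chr14:73925006-73925125, plus strand): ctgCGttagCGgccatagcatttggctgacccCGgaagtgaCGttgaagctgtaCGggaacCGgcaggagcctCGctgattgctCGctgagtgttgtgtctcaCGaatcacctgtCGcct
Acsf3 (chr8:125299285-125299404, plus strand): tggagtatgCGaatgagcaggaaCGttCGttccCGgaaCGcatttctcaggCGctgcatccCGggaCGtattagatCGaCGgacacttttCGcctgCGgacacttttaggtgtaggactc
These stretches held 10 and 12 CpGs, within the range of the first 5 above, while 43 and 50 CpGs lay within 500 bases. At Bscl2, also among the 10 highest ratios and not shown, 47 CpGs lay within 500 bases, so the numbers at single TSSs with high and low ratios overlapped.

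The gene Msl1 had the highest ratio, with 628 Msl1 and 98 Nsl1 reads (ratio 8.18, 6.61 to 10.2). The antigen used to raise the anti-Msl1 antibody was an N-terminal fragment of Msl1 cloned in a bacterial plasmid, and the coding bases of the residues stated for it lie in exon 1 at chr11:98657151-98657774 (mm9, plus strand). The cloning primers that the study lists under this name match later exons instead, so the place of the cloned fragment is uncertain. Within these 624 bases lay 466 reads of Msl1 and 11 reads of Nsl1. The fullest 500 bases held 65.1% of the Msl1 reads of this window, beside a median of 30.7% over the selected TSSs, and the highest share was 67.8% at Gng3, which is no antigen here. Outside the 624 bases of the stated residues 162 Msl1 and 87 Nsl1 reads remained, a ratio of 2.38 (1.82 to 3.12) that is below the threshold. The part of cloned DNA in these reads was not tested. The later exons matched by the primers lie in the stretch from 2 to 10 kb. From 2 to 10 kb downstream, the gene Msl1 had 141 Msl1 and 158 Nsl1 reads (ratio 1.14, 0.902 to 1.44).

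Eif4g2, a relative of the scaffold protein of cap-dependent translation initiation, had 317 Msl1 and 70 Nsl1 reads (ratio 5.78, 4.45 to 7.60). Phc1, a Polycomb subunit, had 177 Msl1 and 42 Nsl1 reads (ratio 5.38, 3.83 to 7.73). Slc3a2, the heavy chain of amino acid transporters, had 298 Msl1 and 71 Nsl1 reads (ratio 5.36, 4.13 to 7.05). Of the Msl1 reads, 85.2% at Eif4g2, 45.2% at Phc1 and 20.5% at Slc3a2 lay downstream of the TSS. The median over the selected TSSs was 69.8%, so most Msl1 reads counted for Slc3a2 lay upstream of it, unlike at most selected TSSs. The intervals of these 3 TSSs overlap, so their order is not resolved. Tcf15, a transcription factor gene, had 203 and 49 reads (ratio 5.29, 3.86 to 7.38). Hnrnpa2b1, which encodes an RNA binding protein, had 331 and 81 reads (ratio 5.22, 4.08 to 6.74). Cbx3, which encodes the heterochromatin protein HP1 gamma, is transcribed away from Hnrnpa2b1 from a TSS at a distance of 466 bases, and most of its 313 Msl1 and 83 Nsl1 reads are therefore the same reads. Among the 20 highest ratios were also Epc1, Csnk1a1, Epha2, Bscl2, Srsf3, Pim1, Bcor, Ube2s, Aebp2, Sall3, 4931440P22Rik, Spen and Sfpq, with ratios from 4.54 at Sfpq to 5.24 at Epc1.

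**Figure D1:**
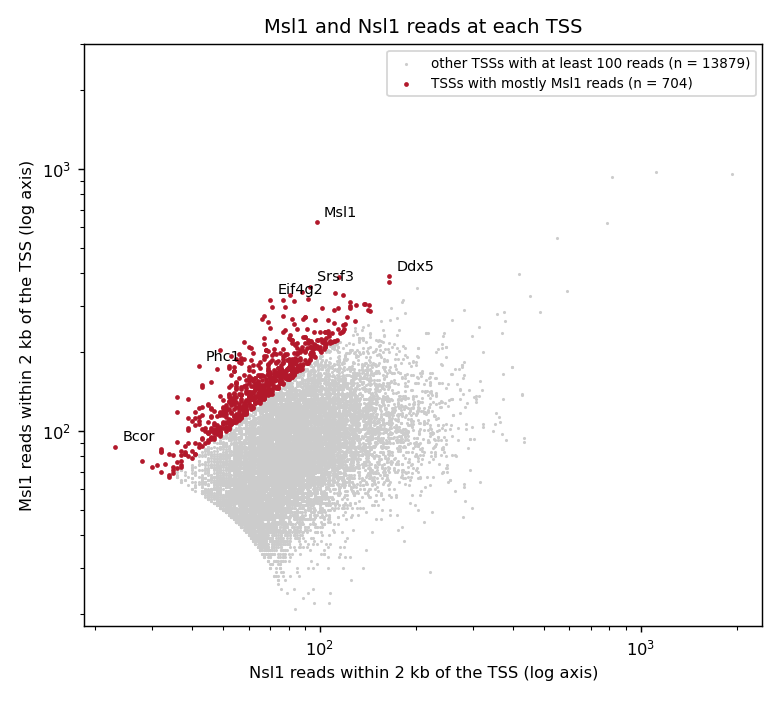
Msl1 reads (vertical log axis) against Nsl1 reads (horizontal log axis) within 2 kb of each of the 14583 TSSs with at least 100 reads of both libraries together, 1 point per TSS. The 704 selected TSSs are red and lie along the upper left edge by construction, with the gene Msl1 (628 and 98 reads) apart from the others.

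Across the 704 TSSs the ratio ranged from 2.5 to 8.18 with a median of 2.81, and 118 had an interval whose lower end was also at 2.5 or more. All 704 intervals lay above 1.28, the median ratio of the 14583 TSSs, beside 22% of the intervals of all these TSSs. The rule uses the same reads and fixes this outcome for the selected TSSs, so it is a description. Just inside the threshold were Nt5dc2 (100 Msl1 and 51 Nsl1 reads), Gm10000 (96 and 49) and Ier3 (139 and 71), and just outside it were Senp6 and Dnajc21 (both 92 and 47) and Slc35d3 (135 and 69). The most reads, after the gene Msl1, lay at Ddx5, an RNA helicase gene, with 389 Msl1 and 165 Nsl1 reads, and at Ccdc45, whose TSS is 67 bases from that of Ddx5. E130012A19Rik followed with 388 and 115 reads, and Ywhae, a 14-3-3 protein gene, with 331 and 118. Srsf3 had the same total as Ywhae, 449 reads. Of the 704 TSSs, 101 had a window that overlapped that of another selected TSS, in 52 pairs. In 30 pairs the genes were transcribed away from each other from TSSs that were a median of 177 bases apart. With overlapping windows counted once, 653 regions were left.

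A high ratio can come from many Msl1 reads or from few Nsl1 reads, and both were seen. The level within 2 kb was divided by the level of the same library from 5 to 50 kb on both sides. For Msl1 this gave a median of 3.03 (2.96 to 3.12) at the selected TSSs and 1.83 over all TSSs with at least 100 reads. For Nsl1 it gave 1.24 (1.21 to 1.27) and 1.51. At 508 of the 704 the Msl1 level was at or above the median of all TSSs while the Nsl1 level was below it, beside 17.5% of all. These levels come from the reads that the rule used. An Msl1 level of at least 2 times the local level was found at 650 of the 704 TSSs, beside 41.0% of all TSSs with at least 100 reads. An Nsl1 level of at least 2 times the local level was found at 27 of the 704, beside 23.2% of all. These 27 included Ddx5, Hnrnpk, Yy1 and Hcfc1, which were named after their values were seen. At Eif4g2 the Msl1 level was 5.87 and the Nsl1 level 1.53 times the local level. At Phc1 they were 2.91 and 0.702. At Bcor, a gene of a transcriptional corepressor on the X chromosome, they were 2.36 and 0.778. In these 2 genes the Nsl1 level at the TSS was thus below the local level. Their windows held only 42 (Phc1) and 23 (Bcor) Nsl1 reads, and no interval was computed for these levels.

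The reads of the selected TSSs were not spread evenly over the window. The Msl1 profile had its maximum in the bin of 50 bases centred 275 bases downstream of the TSS, at 4.13 times its level at the upstream end of the window, and its lowest bin near the TSS was centred at -125, at 1.08 times that level. The Nsl1 profile had a low maximum at 75 bases, at 2.24 times its upstream end. At the other 13879 TSSs with at least 100 reads, the Msl1 maximum lay at 225 bases (3.38 times) and the Nsl1 maximum at -25 (4.45 times). The dip of Msl1 over the TSS was thus present in both sets. The heights come from the reads that the rule used and are a description.

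**Figure D2:**
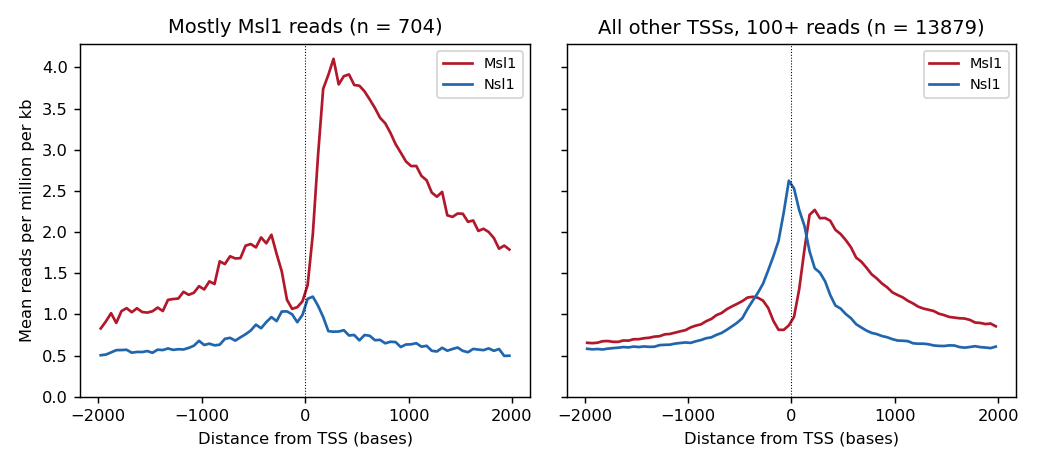
Mean read density of Msl1 (red) and Nsl1 (blue), scaled to library size and given per kb (vertical axis), in bins of 50 bases from 2 kb upstream to 2 kb downstream of the TSS, for the 704 selected TSSs (left) and the other 13879 TSSs with at least 100 reads (right). The Msl1 curve dips at the TSS in both panels, peaks at 275 and 225 bases downstream, and the Nsl1 curve is low throughout the left panel.

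Pooled over the 704 TSSs, the ratio was 1.14 (1.09 to 1.20) in the 200 bases before the TSS, where 3101 Msl1 and 3472 Nsl1 reads lay. It rose to 4.99 (4.83 to 5.17) from 200 to 500 bases downstream and was 3.90 (3.81 to 3.98) from 1 to 2 kb. At the other TSSs the same 3 stretches gave 0.403, 1.62 and 1.61, so the ratio was lowest just before the TSS in both sets. The rule used the reads of these stretches, so the higher ratios at the selected TSSs are a description. Of the Msl1 reads within 2 kb of the selected TSSs, 67.7% (67.4 to 68.0) lay downstream of the TSS. Per TSS this share had a median of 69.8% at the selected TSSs and 61.9% at all TSSs with at least 100 reads. These shares come from the reads that the rule used, which favours windows rich in Msl1 reads. The part of the selection in this difference was not tested. The Nsl1 share was even on both sides, with medians of 50% and 51.4%. When the selected TSSs were divided into 3 groups of similar size by the length of the first exon, the Msl1 maximum lay at 275 bases for first exons of 9 to 219 bases and of 220 to 450 bases, and at 475 bases for those of 454 to 6585 bases. First exons were longer at the selected TSSs, with a median of 312 bases (290 to 343) beside 219 over all TSSs with at least 100 reads.

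The reads outside the window were not used by the rule. From 2 to 10 kb downstream, the ratio had a median of 1.68 (1.63 to 1.74) over the 703 selected TSSs with at least 50 reads there, all but that of Phf8, and 1.25 over all TSSs. A downstream ratio of at least 2 was found at 222 of the 703, beside 7.23% of all TSSs, and at 0 of the 73 TSSs with mostly Nsl1 reads (ratio of 0.4 or less). From 10 to 2 kb upstream, the median was 1.14 (1.11 to 1.17) beside 1.04 over all, and 40 of 703 had a ratio of at least 2, beside 2.35% of all. The excess of Msl1 reads thus extended mostly in the direction of transcription.

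In long genes the excess was followed further. In the 226 selected genes with transcripts of at least 50 kb, the pooled ratio was 1.84 (1.795 to 1.896) from 2 to 5 kb, 1.44 (1.41 to 1.46) from 10 to 20 kb and 1.35 (1.34 to 1.37) from 30 to 50 kb downstream. In the 3146 other genes of that length it was 1.32, 1.18 and 1.14 over the same stretches. Upstream, it was 1.20 (1.16 to 1.23) from 5 to 2 kb and 1.03 (1.01 to 1.05) from 20 to 10 kb, beside 1.02 and 1.02 at the other genes. In the 151 selected genes with transcripts under 5 kb, the ratio was 1.56 (1.502 to 1.615) in the first 2 kb after the end of the transcript and 1.16 (1.13 to 1.19) from 5 to 10 kb after it. In 2498 other genes of that length these ratios were 1.23 and 1.14. For transcripts shorter than 2 kb, the first stretch lies partly in the window that the rule used. The ratio of 1.56 is therefore partly set by the selection.

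**Figure D3:**
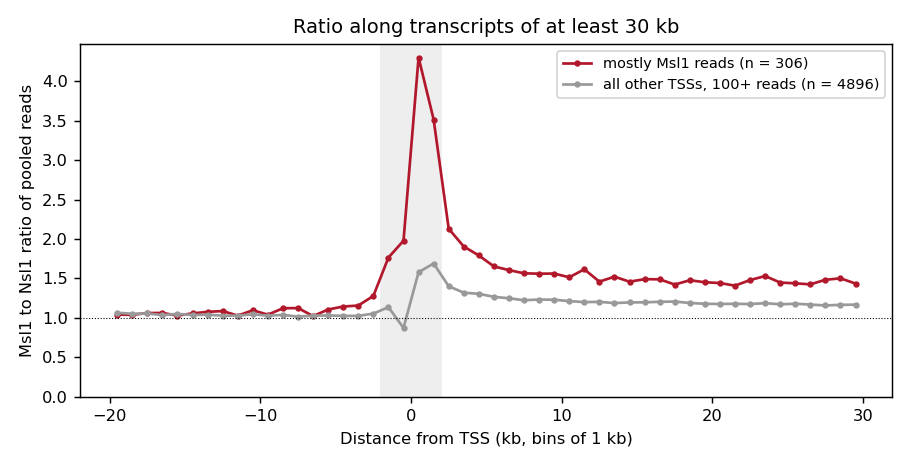
Ratio of Msl1 to Nsl1 reads scaled to library size (vertical axis), pooled in bins of 1 kb from 20 kb upstream to 30 kb downstream of the TSS, for genes with transcripts of at least 30 kb: 306 selected TSSs (red) and 4896 others with at least 100 reads (grey). The grey band marks the window used for selection. Downstream of the band the red line stays above the grey one as far as 30 kb, and farther than 5 kb upstream the red line lies between 1.02 and 1.12 and the grey one between 1.02 and 1.07.

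The highest downstream ratios were at Trim71, an RNA binding ubiquitin ligase gene of early development, with 501 Msl1 and 139 Nsl1 reads from 2 to 10 kb (ratio 4.60, 3.81 to 5.60). Brd2, which encodes a reader of acetylated histones, had 537 and 151 reads (4.54, 3.78 to 5.48), and Smad7, an inhibitor of TGF-beta signalling, had 495 and 146 (4.33, 3.59 to 5.24). At Brd2 the downstream ratio was above that within the window (2.76, 2.18 to 3.50), while at Trim71 the intervals overlapped (4.16, 3.05 to 5.76). Mkrn1 had a downstream ratio of 4.10 and Srsf3 of 3.87. At the other end were Gm10083 (43 and 95 reads, 0.578, 0.394 to 0.837), Gm10125, Myb, Gm7854 and 4930524J08Rik, with ratios from 0.599 to 0.739. No excess of Msl1 reads was seen from 2 to 10 kb at these TSSs. The transcripts of Gm10083 (2231 bases), Gm7854 (351) and 4930524J08Rik (603) are short, so most or all of this stretch lies beyond them. The windows of Gm10125 and 4930524J08Rik overlap those of Zeb1 and Hnrnpd, which were also selected.

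Gene lists were then compared by the share of their TSSs that were selected, beside the 4.83% of all TSSs. The lists were chosen with earlier results of these data known, so their ranking is a description. The ratios within the window come from the reads that the rule used. The list of SR and hnRNP proteins, which bind nascent RNA and act in splicing, had the largest share of the 22 lists, 20 of 43, and a median ratio of 2.42 beside 1.28 over all. They included Srsf3, with 356 Msl1 and 93 Nsl1 reads, Sfpq with 274 and 77, and Tra2b with 267 and 82. Downstream, 17 of these 20 had a ratio of at least 2, beside 31.6% of all selected TSSs and 7.23% of all TSSs, with a median of 2.47 beside 1.68 over all selected TSSs.

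Of the pluripotency genes 13 of 32 were selected. Klf5 had 248 Msl1 and 70 Nsl1 reads (ratio 4.52, 3.46 to 5.99). Sox2 had 226 and 80 (3.61, 2.78 to 4.72), Nanog 178 and 87 (2.61, 2.01 to 3.42) and Pou5f1, which encodes Oct4, 172 and 86 (2.55, 1.96 to 3.35). The others were Fgf4, Klf2, Tbx3, Nodal, Klf4, Mybl2, Sall4, Tdgf1 and Trim28. Pou5f1 and Trim28 lay closest to the threshold, at 2.55 each. From 2 to 10 kb downstream, 10 of the 13 had a ratio of at least 2, beside 31.6% of all selected TSSs, and the median was 2.70, beside 1.68. Since some of these genes are short, this stretch also covers sequence after the gene: at Sox2 it held 302 Msl1 and 130 Nsl1 reads.

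Immediate early genes, which are switched on within minutes by growth signals, had 16 of 40 TSSs selected. Among them were Mcl1, an anti-apoptotic gene, with 255 Msl1 and 83 Nsl1 reads, and Ier2 with 290 and 111. Their downstream ratios had a median of 1.46, beside 1.68 over all selected TSSs, and 2 of the 16 reached 2, beside 31.6%. The lengths of these genes were not taken into account, and in short genes this stretch lies partly or wholly beyond the gene. Of the genes of the LIF, Stat3 and Myc pathway, which maintains mESCs, 6 of 23 were selected: Pim1, a kinase gene, Socs3, a feedback inhibitor of Stat3, Mycn, Pim3, Myc and Junb. Socs3 had 318 Msl1 and 92 Nsl1 reads (4.41, 3.49 to 5.63) and Myc 128 and 60 (2.72, 1.99 to 3.77). Of the ubiquitin genes and p53 targets, 7 of 19 were selected, with Mdm2, the ubiquitin ligase of p53, at 178 and 64 reads.

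Cytosolic ribosomal protein genes had 19 of 77 TSSs selected and mitochondrial ones 1 of 75. The median ratio was 2.04 in the first list and 0.945 in the second, in which 3 TSSs had mostly Nsl1 reads. Rpl12 had 272 Msl1 and 90 Nsl1 reads (3.86, 3.03 to 4.96). Selected were also 3 of 78 nuclear respiratory chain genes (3.85%) and 1 of 40 proteasome subunit genes (2.5%). Of 20 glycolysis genes 1 was selected (5%), and of 20 aminoacyl-tRNA synthetase genes 0. These lists are small, and a difference from the 4.83% of all was not tested. Of 286 Zfp zinc finger genes 6 were selected (2.1%), and of 35 olfactory receptor genes 0. Only these 35 of 1087 olfactory receptor TSSs had at least 100 reads.

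Shares above the 4.83% of all were found for chromatin regulators (11 of 50) and cytoskeleton genes (6 of 30). Genes of amino acid transport and Atf4 targets (6 of 29) and homeobox and lineage factor genes (26 of 160) also lay above it. So did translation factors (7 of 55) and core histone genes (6 of 50). Heat shock and chaperonin genes (4 of 36) and cyclin and Cdk genes (5 of 46) did as well. For these lists too, a difference from the 4.83% of all was not tested. The chromatin regulators included Arid1a, a SWI/SNF subunit, with 188 Msl1 and 55 Nsl1 reads. In the homeobox and lineage factor list Sox4 counts at 2 annotated gene entries whose TSSs are 1879 bases apart. Among the selected core histone genes, the windows of Hist1h2ae, Hist1h2bg and Hist1h2bf overlap, so these genes share reads. Of the 10 TSSs of Mof complex subunits with at least 100 reads, those of Msl1, Ogt and Hcfc1 were selected. At the gene Msl1 the ratio outside the bases of the stated antigen residues was 2.38, below the threshold. Ogt, a glycosyltransferase of the NSL complex, had 85 Msl1 and 32 Nsl1 reads (3.39, 2.24 to 5.27), and Hcfc1, another subunit of it, had 145 and 65 (2.85, 2.11 to 3.88).

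**Figure D4:**
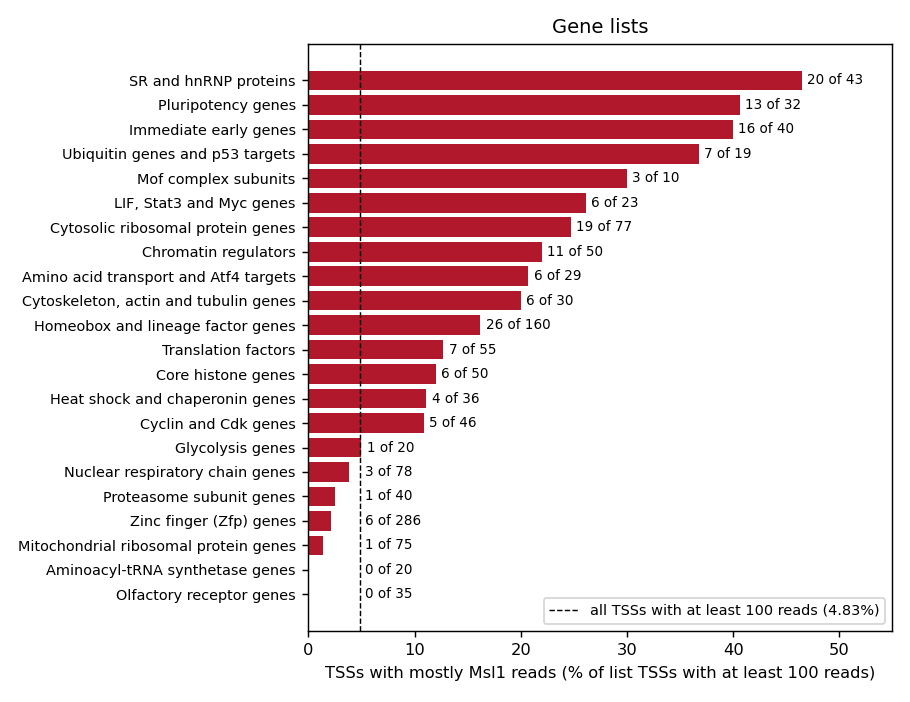
Share of the TSSs with at least 100 reads in each of 22 gene lists that were selected (bars, percent), with the number selected of the number in the list. The dashed line is the share of all TSSs with at least 100 reads (4.83%). SR and hnRNP proteins (20 of 43), pluripotency genes (13 of 32) and immediate early genes (16 of 40) lie highest. The lists were chosen with earlier results of these data known.

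The selected TSSs lay in sequence rich in G and C. The GC content within 2 kb had a median of 54.3% (53.9 to 54.7), beside 50.1% over all TSSs with at least 100 reads and 45.0% at the 73 TSSs with mostly Nsl1 reads. The ratio of observed to expected CpGs within 2 kb had a median of 0.650 (0.634 to 0.665), beside 0.454 and 0.391. When all TSSs with at least 100 reads were divided into 10 groups of similar size by GC content, the median ratio went from 0.968 in the lowest to 1.81 in the highest group and the selected share from 0.748% to 17.1%. The libraries were made with different kits, and the part of base composition in the ratio was not tested. After division by the median ratio of the same GC group and multiplication by the median of all, 497 TSSs passed the threshold, of which 362 were among the 704. In this setting 3.41% of all TSSs with at least 100 reads passed. Of the lists, 16 of the 43 SR and hnRNP genes passed (20 before), 11 of the 32 pluripotency genes (13), 28 of the 77 cytosolic ribosomal protein genes (19), 9 of the 50 chromatin regulators (11), 3 of the 23 LIF, Stat3 and Myc genes (6), 2 of the 46 cyclin and Cdk genes (5), 6 of the 40 immediate early genes (16) and 9 of the 160 homeobox and lineage factor genes (26). Counts also rose for translation factors (9, 7 before), core histone genes (9, 6), nuclear respiratory chain genes (5, 3) and Zfp genes (8, 6). They fell for amino acid transport and Atf4 targets (4, 6), cytoskeleton genes (4, 6) and ubiquitin genes and p53 targets (5, 7). Heat shock and chaperonin genes (3, 4) and Mof complex subunits (2, 3) fell too, and the remaining lists kept their counts. Starts unique in the genome for 36 bases made up a median of 99.1% of the window at the selected TSSs and 97.9% at all.

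Of 11 short motifs searched on both strands from 250 bases upstream to 50 bases downstream of the TSS, GGGCGG, the core of Sp1 sites, was held by 79.3% of the selected TSSs and 60.9% of all TSSs with at least 100 reads. CCGGAAG, the core of Ets sites, was held by 8.81% and 15.3%, and by 52.1% of the 73 TSSs with mostly Nsl1 reads. TATAAA was held by 7.10% and 7.52%, and it occurs in the stretches shown for Slc3a2 and Srsf3. CCAAT was held by 37.5% and 36.9%. ATGCAAAT, the octamer bound by Oct factors, was held by 2.56% and 1.35%, and GAGAGAGA, a repeat like that in fly MSL recognition elements, by 4.40% and 3.73%. Shares under 10% in both sets were found for the others: the motif GCGCATGC was held by 3.69% and 4.73%. The motif CACGTG was held by 7.95% and 9.56%. The motif TGACGTCA was held by 3.84% and 3.07%. The motif TTGCATCA was held by 0 of the selected TSSs and 0.521% of all. The motif AAGATGGC was held by 3.55% and 3.97%. Over the whole window of 2 kb on both sides, the octamer was held by 13.4% of the selected TSSs and 15.3% of all, and the repeat like that in fly elements by 44.3% and 46.3%. The Sp1 core was held by 697 of the 704 and 90.5% of all, and the Ets core by 38.4% and 40.1%. GGGCGG consists of G and C alone, and the part of base composition in its share was not tested.

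By chromosome, 19 of the 125 TSSs with at least 100 reads on the X were selected (15.2%), while the 19 autosomes ranged from 2.80% to 6.89%. The X is present once in these male cells, and TSSs with at least 100 reads there had a median of 115 reads, beside 152 to 219 on the autosomes. Only 125 of the 932 TSSs of the X reached 100 reads. With a minimum of 50 reads, 39 of 504 TSSs of the X had a ratio of 2.5 or more (7.74%), beside 689 of 19467 on autosomes (3.54%). With a minimum of 200 reads it was 2 of 3 on the X and 437 of 4391 on autosomes (9.95%), so the share also moved with the minimum. Farther than 10 kb from any annotated TSS, the ratio was 1.04 on the X and 0.918 to 0.998 on the autosomes. The genes selected on the X included Bcor (87 Msl1 and 23 Nsl1 reads), Rlim, a ubiquitin ligase gene that promotes X inactivation (124 and 43), Atrx, a chromatin remodeller gene (103 and 39), Ogt, Phf8, Rbm3, Hcfc1 and Rpl39. At Rlim the downstream ratio was 3.83, beside 3.68 within the window.

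**Figure D5:**
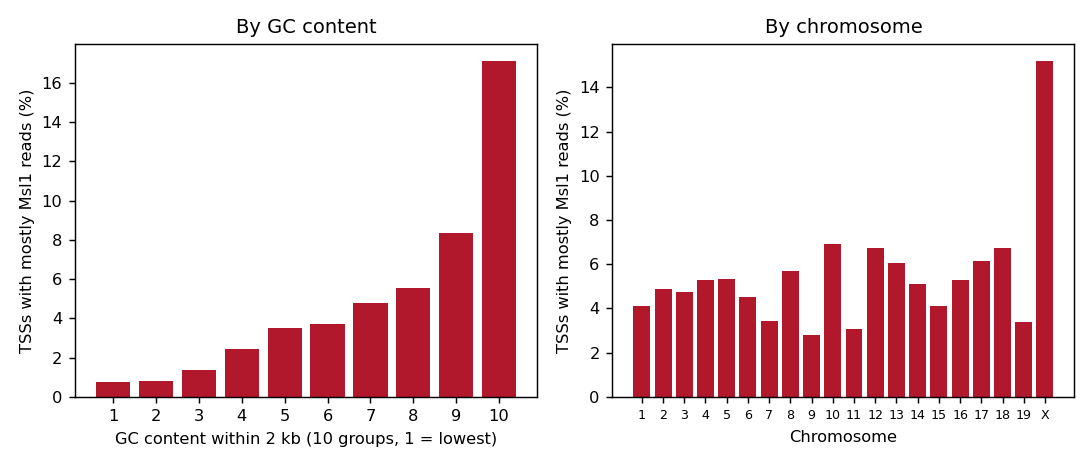
Share of TSSs with at least 100 reads that were selected (vertical axes, percent), by GC content within 2 kb of the TSS in 10 groups (left, 0.748% in the lowest and 17.1% in the highest group) and by chromosome (right). The bar of the X chromosome (15.2%, 19 of 125 TSSs) is above those of the 19 autosomes.

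Genes that hold an annotated small RNA between their ends, on the same strand, were among those selected. Introns and exons were not told apart. Of 227 TSSs of genes that host a snoRNA, 32 were selected (14.1%), and of 336 that host a miRNA, 37 (11%), beside 4.83% of all. The snoRNA hosts included the ribosomal protein genes Rpl12, Rpl7a, Rpl3 and Rpl13, the translation factor genes Eif4g2, Eif4a2 and Eef2, and Hspa8, a heat shock protein gene. Single-exon transcripts were selected in 53 of 711 cases (7.45%). Where a protein-coding TSS of the opposite strand lay within 1 kb upstream, 65 of 1544 were selected (4.21%), close to the 4.83% of all.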

How the data were processed

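ChIP-seq reads of Msl1 and Nsl1 from mESCs were used, 1 library for each. Per the labels, mm9 was the build and CASAVA 1.8.2 and Bowtie 0.12.7 the tools, and the authors deposited every aligned read as a position, a strand and a score, which never varies and was not used. Of the nuclear reads, 18.3% (Msl1) and 4.56% (Nsl1) repeated a position and strand. They were counted once, and 5′ ends were moved downstream by 105 (Msl1) or 67 (Nsl1) bases. TSSs came from a GENCODE annotation of mm9. Intervals of ratios are Clopper-Pearson, those of medians come from order statistics and treat TSSs as independent. Flanks needed 50 reads, and unique starts were found in the genome itself.

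Python 3.11.15, numpy 2.4.6, pandas 2.3.3, scipy 1.17.1, numba 0.67.0 and matplotlib 3.10.9 were used. Counting and the uniqueness of starts were tested on simulated data. Named genes are the 20 highest ratios, the 3 TSSs on each side of the threshold, the 5 with most reads, the 5 highest and lowest downstream ratios and list members, together with genes chosen after their values were seen (those with a high Nsl1 level, on the X and hosting snoRNAs). The TSSs and lists were chosen with earlier results of these data known. Alternatives were other thresholds, windows, shifts, duplicates, strands, scalings and base composition.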

Additional observations from a re-analysis of the deposited data

How the results depend on the processing

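Of 51 alternatives, 30 left the value within 1.5 times the count or within the interval of the median. The number of 704 TSSs was kept within 1.5 times in 12 of 20 settings. It was 208 with a window of 5 kb, 439 with at least 200 reads, 1901 with a ratio of at least 2, 241 with a ratio of at least 3 and 118 when the lower end of the interval had to reach 2.5. It was 397 when each library was divided by its local level (317 of them among the 704), 167 when the ratio was divided by the median of all, and 452 after correction for the CpG ratio within 500 bases (358 of them among the 704), a setting chosen after seeing the data. With a window of 1 kb the number was 674, of which 426 were among the 704. The downstream ratio was 1.40 from 5 to 20 kb, 1.345 when divided by the median of all, and 1.802 inside transcripts of at least 10 kb, also chosen after seeing the data. The upstream ratio was 1.07 from 20 to 5 kb and 1.10 when divided by the median of all. The Msl1 level over the local level was 3.49 within 500 bases and 3.23 against 10 to 100 kb, and the Nsl1 level was 1.59 within 500 bases. The downstream share of Msl1 was 68.0% with all reads and 67.04% with every TSS scaled to the same sum. Within 500 bases the GC content was 65.5%, the CpG ratio 0.860 and the share of unique starts 100%. No paired analysis was possible because there is 1 library per antibody and no result comes from a test. The depth gave 101 to 726 reads per selected TSS, so single ratios near 2.5 are uncertain, and no replicate or Input was used to separate antibody from library.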
